A study of Mus musculus with 6 samples.

Results

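Malat1, Neat1, Meg3, Rian, Mirg, Miat and Snhg11 are 7 noncoding genes out of 52636 genes in a single-cell RNA-seq count table of mouse retina. They were chosen by their measured values in these data: their levels across the deposited cell types and genotypes, the share of each cell's reads on Malat1, and the joint detection of Meg3, Rian and Mirg were known beforehand. Those patterns across types and within cells are described without a test. Results for the genotypes and batches were also in view when the genes were chosen, so the p-values given for them, from fits across all genes, set a difference against the spread between retinas and are no independent support. All 7 genes were found by symbol, and all 7 had reads, between 16 and 3405771 unique molecular identifiers (UMIs, which count captured RNA molecules) each.

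The study dissociated retinas of male C57BL/6J mice aged 12 months and prepared 10x Genomics 3′ v2 libraries, which read the 3′ ends of polyadenylated RNA. There were 3 Dram2 WT and 3 Dram2 KO retinas, each from 1 labelled sample. The knockout mice carried a CRISPR/Cas9 deletion of an exon of Dram2, made with a pair of guide RNAs in zygotes. The labels place replicate 3 of each genotype in batch 1 and replicates 1 and 2 in batch 2, so that batch 1 holds 2 retinas and batch 2 holds 4. Retinas are called WT 1 to WT 3 and KO 1 to KO 3 after their labels. The submitters' notes are at odds with these labels: they count 2 samples in all, 1 per genotype in the library notes, and the design note names choroid where the labels name retina. The labels were followed, but they do not say whether the replicates are separate animals, so each n, SD, SE and p-value rests on the spread between the labelled samples, which may be technical.

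The 46375 cells held 3463728 to 6563762 UMIs per retina, with a median of 406 to 609 UMIs per cell. Mitochondrial genes took 0.405% to 0.720% of UMIs in batch 2 and 2.75% and 3.22% in batch 1. Dram2, the deleted gene, had 27.8, 34.8 and 56.0 CPM (counts per 1000000 UMIs) in WT 1 to 3 and 27.4, 34.0 and 53.5 CPM in KO 1 to 3. A 3′ tag can lie outside the deleted exon, so these values do not check the genotype. The deposited annotation called 42359 cells photoreceptors, 2083 interneurons, 942 glia, 246 mesenchymal and 116 retinal pigment epithelium (RPE), and left 629 without a type. Rod markers stood at 60560 to 93060 CPM in photoreceptors and still at 5324 to 13280 CPM in the other types. Interneurons had 8521 to 15120 CPM of bipolar and 1363 to 3624 CPM of amacrine markers, glia 49680 to 63320 CPM of Muller glia markers and RPE 91030 to 122500 CPM of RPE markers. In the cells labelled mesenchymal the fibroblast markers were at 0 to 17.5 CPM, while endothelial markers reached 4798 to 11940 CPM and microglial markers 4366 to 20480 CPM. Cell names are running numbers, so cell barcodes shared between libraries could not be counted. The sources used here name no step for doublets and no doublet caller was run, so all cells were kept, and the part of doublets in the joint detection of genes and in single cells of high depth was not tested.

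Long noncoding RNAs carry no protein message, and many stay in the nucleus. Malat1 RNA sits in nuclear speckles, where splicing factors are stored, and the long form of Neat1 is the scaffold of paraspeckles; both end in an RNA triple helix in place of an ordinary poly(A) tail. Meg3, Rian and Mirg are expressed from the maternal chromosome in the imprinted Dlk1-Dio3 domain and host microRNAs and small nucleolar RNAs. Miat is a nuclear RNA of neurons, and Snhg11 is a small nucleolar RNA host gene abundant in the nervous system.

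In the GENCODE M21 annotation of GRCm38, Malat1 (ENSMUSG00000092341) is a single-exon lincRNA on the minus strand at chr19:5795690-5802672, and Neat1 (ENSMUSG00000092274) a lincRNA on the same strand at chr19:5824708-5845478, 22035 bases away. The stretches of Malat1-201 and Neat1-201 that hold the triple helix are shown because they set these RNAs apart from polyadenylated ones. Each window is 110 bases long, stops 292 bases (Malat1) or 0 bases (Neat1) before the annotated transcript end, lies at chr19:5795982-5796091 and chr19:5824708-5824817 of the minus strand, and has in capitals the 3 runs, of 13, 16 and 11 bases, that the 2 transcripts share.
Malat1: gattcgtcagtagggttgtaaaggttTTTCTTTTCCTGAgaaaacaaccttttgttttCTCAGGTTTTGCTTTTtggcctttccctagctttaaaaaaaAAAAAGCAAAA
Neat1: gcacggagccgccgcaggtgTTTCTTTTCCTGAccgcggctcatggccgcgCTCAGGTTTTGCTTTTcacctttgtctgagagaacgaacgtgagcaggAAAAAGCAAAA
The T-rich and A-rich capitals are the stretches known to pair in the triple helix. Neither an A run nor the closing motif AAAGCAAAA is particular to these 2 genes: the longest transcripts of Meg3 and Rian hold A runs of up to 16 and 15 bases, and those of Miat and Snhg11 hold the motif 1 time each. The longest run of A in the window was 12 bases in Malat1 and 5 bases in Neat1. A run of 12 A was found in 3107 of 55450 longest transcripts, 1 per gene (5.6%), and the closing motif AAAGCAAAA, searched on the transcript strand only, in 1935 (3.49%). An A run is a place where the oligo(dT) primer of a 3′ library can start; its part in the counts of any member was not tested.

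Meg3 (ENSMUSG00000021268, lincRNA, chr12:109541001-109571726), Rian (ENSMUSG00000097451, processed transcript, chr12:109603940-109661716) and Mirg (ENSMUSG00000097391, lincRNA, chr12:109729764-109749460) lie in this order on the plus strand, with 32213 and 68047 bases between them. Inside their spans RefSeq places 3, 6 and 26 mature microRNAs. One is shown for Meg3 and one for Rian, with the pair in Mirg that shares a seed (bases 2 to 8, in capitals), to show what the 3 host RNAs carry.
miR-770-5p, in Meg3: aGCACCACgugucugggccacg
miR-370-3p, in Rian: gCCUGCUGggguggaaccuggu
miR-453, in Mirg: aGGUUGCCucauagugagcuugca
miR-496a-5p, in Mirg: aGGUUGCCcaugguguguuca
MicroRNAs are too short for these libraries and have no values here. In RefSeq windows of 300 bases around the gene starts (GRCm38.p6), CG dinucleotides numbered 13 and 1 for the 2 Meg3 starts, 0 for Rian and 10 for Mirg, against a median of 7 over 32851 windows. Miat (ENSMUSG00000097767, lincRNA) lies at chr5:112213228-112229395 on the minus strand, and Snhg11 (ENSMUSG00000044349), which this annotation types as protein coding, at chr2:158375638-158386145 on the plus strand. Genes on the opposite strand overlap exons of Malat1 (Gm37376), Meg3 (Gm26906) and Miat (Gm26953). On the same strand, small RNA genes overlap exons of every member: 9 for Rian, 9 for Mirg, 4 for Miat, 3 each for Neat1 and Meg3, and 1 each for Malat1 and Snhg11. The part of these overlaps in the counts was not tested. The kit marks strand, but the strand setting of the counting is not given in the sources used here.

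Malat1 alone took 12.2% of all UMIs and had a UMI in 46125 of 46375 cells. Meg3 followed with 10466 UMIs, Snhg11 with 7028, Neat1 with 1863, Rian with 234, Mirg with 70 and Miat with 16. Interneurons, 2083 of the cells, held 89.1% of the Meg3 UMIs, 89.8% of the Snhg11 UMIs, 87.6% of the Rian UMIs and 75.7% of the Mirg UMIs. Neat1 and Malat1 instead had 76.1% and 82.8% of their UMIs in photoreceptors, the most numerous cells. Photoreceptors also held most UMIs of any gene, 21117203 against 4265835 in interneurons and 1553171 in glia, so such a share is not a level. Interneurons gave 7.10% to 24.9% of all UMIs by retina. Each molecule gives 1 tag in a 3′ library, so CPM were not divided by gene length.

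**Figure D1:**
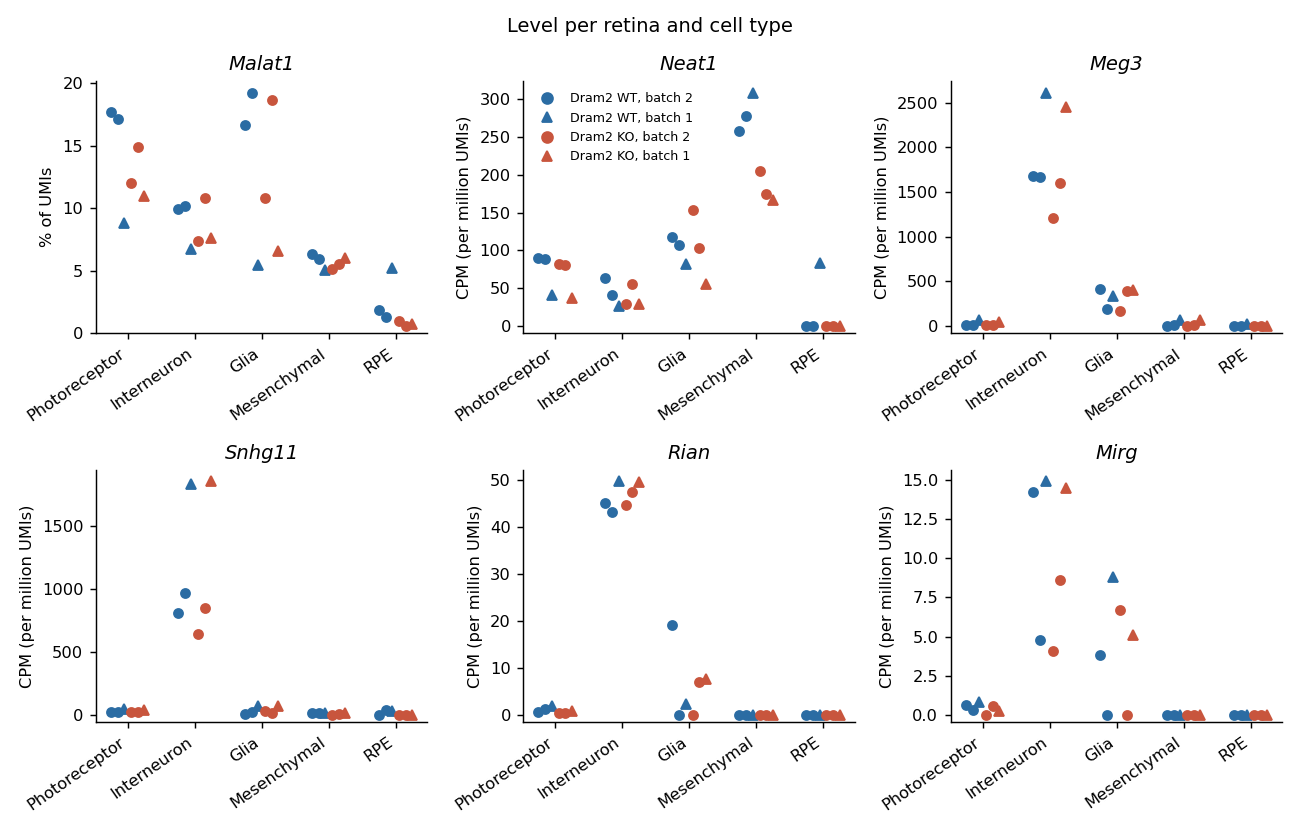
Level of 6 of the genes in each retina (1 point per retina) and deposited cell type; Malat1 is in percent of UMIs and the others in CPM on linear axes, circles are batch 2 and triangles batch 1. Meg3, Snhg11 and Rian stand highest in interneurons in all 6 retinas, Neat1 in mesenchymal cells, and Malat1 lowest in RPE except in WT 3.

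In photoreceptors Malat1 took 17.7%, 17.1% and 8.80% of UMIs in WT 1 to 3 and 12.0%, 14.9% and 10.96% in KO 1 to 3. In glia its share was 16.7%, 19.2% and 5.48% in WT and 10.8%, 18.6% and 6.55% in KO. Both batch 1 retinas were the lowest of the 6 in these types. In interneurons the share was narrower, from 6.76% in WT 3 to 10.8% in KO 2, and in mesenchymal cells narrower still, from 5.06% to 6.31%. RPE had the least Malat1, with 1.90%, 1.28% and 5.20% in WT and 0.962%, 0.577% and 0.720% in KO. By the mean over retinas the order was photoreceptors (13.6% ± 3.57, SD, n = 6), glia (12.9% ± 6.11), interneurons (8.79% ± 1.72), mesenchymal cells (5.67% ± 0.506) and RPE (1.77% ± 1.75). Only interneurons and mesenchymal cells were separated between neighbours in this order, every interneuron value lying above every mesenchymal value.

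Neat1 was highest in the mesenchymal cells, at 258, 277 and 309 CPM in WT and 205, 175 and 167 CPM in KO. All 6 values lay above the highest glial value, 154 CPM. Glia (103 CPM ± 33.3, SD, n = 6), photoreceptors (69.9 ± 24.1) and interneurons (40.9 ± 15.9) followed, with overlapping retinas. Among the mesenchymal cells Neat1 was detected across lineages: cells with most UMIs on the endothelial list (115 cells) had 259 CPM, those on the microglial list (85 cells) 201 CPM and those on the pericyte list (30 cells) 200 CPM. RPE showed 3 Neat1 UMIs in all, each from WT 3.

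Meg3, the best measured of the imprinted genes, had 1675, 1669 and 2610 CPM in WT interneurons and 1204, 1599 and 2454 CPM in KO interneurons. The 2 batch 1 retinas were highest. Glia came second, at 168 to 416 CPM, below every interneuron value and above every value of the other 3 types. Photoreceptors had 6.57 to 66.5 CPM and mesenchymal cells 0 to 66.2 CPM, and these did not differ beyond their spread. Glial sums held 1465 to 2246 CPM of bipolar and amacrine markers together, against 1223 to 1603 CPM in photoreceptors, where Meg3 was lower. Bipolar markers alone were at 234 to 549 CPM in glia and 738 to 831 CPM in photoreceptors. Amacrine markers were at 1232 to 1697 CPM in glia, which overlaps the 1363 to 3624 CPM of interneurons. The joint value is therefore no measure of interneuron RNA in glia. The part of free RNA in the glial Meg3 was not tested.

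Rian and Mirg, downstream of Meg3, also had their highest means in interneurons, at lower levels. Rian was at 45.1, 43.3 and 49.8 CPM in WT interneurons and 44.8, 47.5 and 49.5 CPM in KO interneurons. That is 46.6 ± 2.69 (SD, n = 6) from 11 to 70 UMIs per retina. The counting error of so few UMIs is wider than this SD, which is therefore no sign of a steady level. Glia had 0 to 19.1 CPM of Rian and photoreceptors 0.279 to 1.96 CPM. Mirg had 4.07 to 14.9 CPM in interneurons, 0 to 8.83 CPM in glia and 0 to 0.838 CPM in photoreceptors, so interneurons and glia overlapped. Neither gene had a UMI in mesenchymal cells or RPE, where 0 of 246 and 0 of 116 cells allow a share of cells with a UMI of up to 1.49% and 3.13% (upper bounds of exact 95% binomial intervals, counting error only).

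Snhg11 was the most interneuron-weighted of the well-measured genes. Its level was 809, 971 and 1833 CPM in WT and 639, 850 and 1855 CPM in KO interneurons, a mean 33.2 times that of glia, the next type. In the other types it lay between 0 and 72.8 CPM with overlapping retinas. Miat had 11 UMIs in interneurons and 5 in photoreceptors, all from WT 3 and KO 3, and none in the other named types.

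Depth differed between types, from a median of 428 UMIs per cell in photoreceptors to 1905 in mesenchymal cells, so detection was also compared after thinning each cell to 300 UMIs. Meg3 was then found in 38.0% of interneurons (69.9% as counted), 7.93% of glia (23.1%), 1.65% of mesenchymal cells (3.66%) and 0.602% of photoreceptors (1.07%). Snhg11 was found in 20.3% of interneurons (47.8%) against 0.782% of photoreceptors (1.35%). For Neat1 the thinned shares were 8.26% in mesenchymal cells, 2.93% in glia, 1.99% in photoreceptors and 1.03% in interneurons. Thinning left out 13970 photoreceptors, 35 interneurons, 21 glia, 8 cells of RPE and 4 mesenchymal cells. The photoreceptor shares are taken as the background for Meg3 and Snhg11, with the median depth lower in photoreceptors (428 UMIs) than in interneurons (1844 UMIs). Malat1 was found in 79.6% of thinned RPE cells and in over 97% of thinned cells of each other type.

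The share of each cell's UMIs on Malat1 fell with depth in photoreceptors, though not steadily. With each retina's photoreceptors put in 10 depth groups of equal size, the median share was 14.4% to 20.5% in the shallowest group and 6.80% to 12.4% in the deepest. Spearman's rho of share and depth over cells was -0.51 to -0.26 in the 6 retinas. Interneurons showed no such slope, with rho from -0.15 to 0.11. In glia rho was positive in all 6 retinas, from 0.23 to 0.60. These are descriptions over cells that share a library. With depth counted without Malat1, the median rho over retinas moved from -0.31 to -0.46 in photoreceptors and from 0.38 to 0.21 in glia. In interneurons it went from -0.01 to -0.09, with -0.25 to 0.05 by retina.

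**Figure D2:**
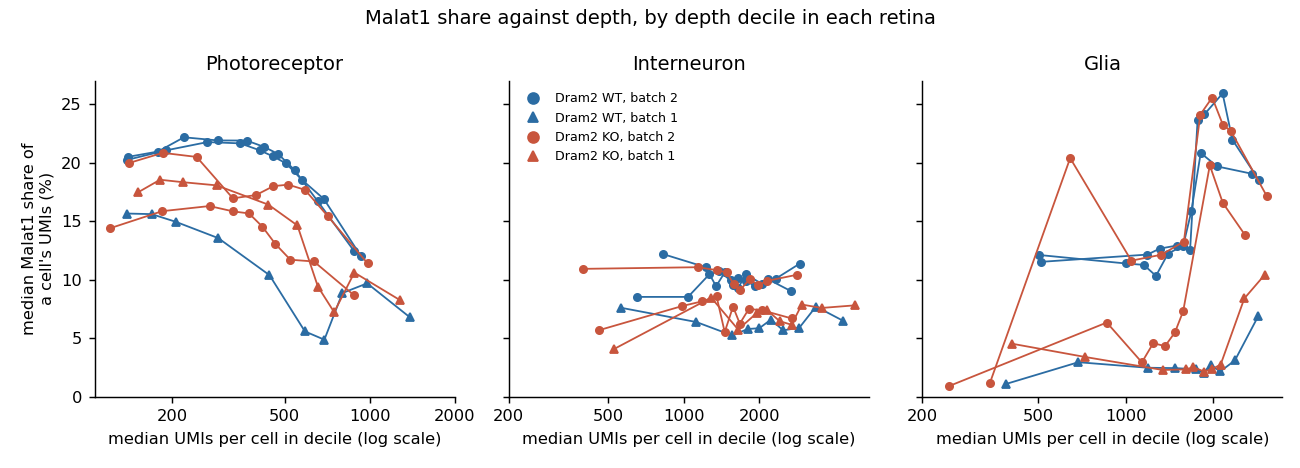
Median Malat1 share of a cell's UMIs (percent, linear axis) against the median UMIs per cell (log axis) in 10 depth groups of each retina, 1 line per retina. The photoreceptor lines end between 6.80% and 12.4%, below where they start; interneuron lines stay between 4.08% and 12.2%; the glial lines of batch 1 stay under 5% over the first 8 groups.

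Photoreceptors fell into 2 ranges of Malat1 share. Of all photoreceptors, 13.05% had under 2% of their UMIs on Malat1 and 1.025% had from 2% to under 4%, while 19.4% lay from 10% to under 15% and 25.1% from 15% to under 20%. Cells under 2% made up 5.06% and 7.28% of photoreceptors in WT 1 and WT 2, and 15.9%, 14.97%, 16.8% and 18.3% in KO 1, KO 2, KO 3 and WT 3. The median depth of the low cells was 486 UMIs, against 541 in cells from 10% to under 15% and 415, 353, 308 and 284 in the bins from 15% up. In WT 3 and KO 3, cells under 4% had medians of 663 and 681 UMIs, against 274 and 307 at 10% and over. In batch 2 these were close, 367 to 420.5 against 370 to 434 UMIs. The cells under 2% had more mitochondrial RNA, a median of 2.00% against 0.642% in cells from 10% to under 15%. They also had more rod marker RNA, 12.7% against 8.56% of UMIs other than Malat1.

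Neat1, the nuclear neighbour of Malat1, was scarce in those same cells. Among photoreceptors with under 4% Malat1, Neat1 was at 0, 18.9 and 9.35 CPM, counted among UMIs other than Malat1, in WT 1 to 3 and at 6.08, 9.66 and 5.81 in KO 1 to 3. Where Malat1 was 10% or more, it was at 123, 123 and 67.9 in WT and 137, 124 and 64.0 in KO. Every retina showed the rise, and the 2 ranges did not overlap. Across finer bins Neat1 went from 7.13 CPM in cells under 2% to 209 CPM in cells of 30% and over, without a drop between neighbouring bins. Meg3 had no such order in these bins, which pool the retinas, with 20.4 and 24.1 CPM at the ends and 65.2 CPM from 4% to under 6%. By retina, Meg3 was higher at 10% and over than under 4% in all 6. In WT 1 to 3 it was at 16.7, 14.2 and 97.4 against 13.1, 14.1 and 38.6 CPM. In KO 1 to 3 it was at 7.64, 15.1 and 60.1 against 6.08, 11.6 and 24.2 CPM. The values under 4% in batch 2 rest on 2 to 6 Meg3 UMIs each. These bins were set after the values had been seen and carry no test; the low counts behind the first of them were 0 to 8 Neat1 UMIs per retina.

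**Figure D3:**
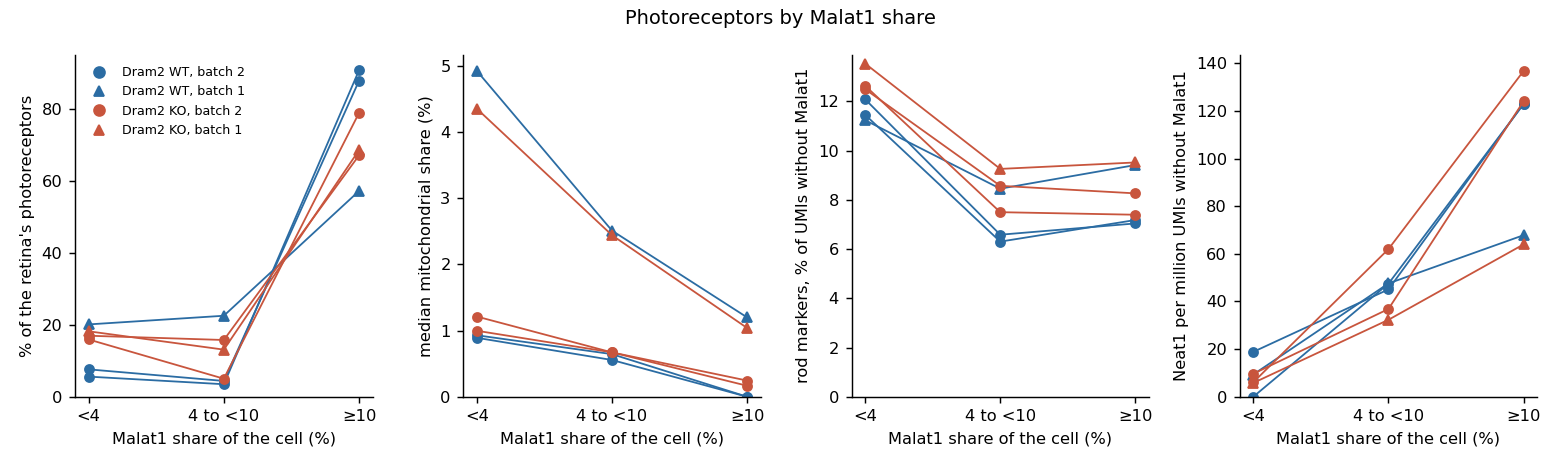
Photoreceptors of each retina (1 line each) grouped by Malat1 share: from left, their percent of cells, median mitochondrial percent, rod markers in percent of UMIs other than Malat1, and Neat1 in CPM among UMIs other than Malat1. From under 4% to 10% and over, Neat1 rises in all 6 retinas while mitochondrial and rod marker RNA fall.

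Glia also spread from low to high shares, and retinas differed in where most cells lay. In WT 1, WT 2 and KO 2 the median glial cell had 13.5%, 17.4% and 18.1% Malat1, in KO 1 5.70%, and in WT 3 and KO 3 2.60% and 2.96%. Cells under 4% made up 69.5% and 63.1% of the glia in WT 3 and KO 3 and 2.92% to 33.3% in the 4 other retinas. Muller glia markers were close in both ranges of batch 1. In WT 3 they were 6.14% of UMIs other than Malat1 in cells under 4% and 6.84% in cells of 10% and over, and in KO 3 6.85% and 7.18%. In batch 2 they were lower in the cells under 4%. There they were 3.81%, 2.54%, 5.20% and 4.97% in WT 1, WT 2, KO 1 and KO 2, against 6.365%, 6.45%, 7.59% and 6.285% at 10% and over. Median mitochondrial RNA was lower in glia of 10% and over than in glia under 4% of every retina. It was 0.595% against 1.62% in WT 3 and 0.458% against 1.29% in KO 3, and 0.116% to 0.190% against 0.443% to 2.41% in batch 2, where 4 to 34 cells per retina lay under 4%. Interneurons formed 1 broad range, a median of 6.20% to 10.2% Malat1 by retina.

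Nearly all interneurons with Rian or Mirg also had Meg3. Meg3 had a UMI in 1455 of 2083 interneurons, Rian in 187 and Mirg in 50. Of the cells with Rian, 177 of 187 (94.7%) had Meg3, and 67.4% of the cells without Rian did. All 50 cells with Mirg had Meg3. By retina, Meg3 was found in 18 of 19, 16 of 18 and 62 of 65 Rian cells in WT 1 to 3 and in 8 of 10, 21 of 22 and 52 of 53 in KO 1 to 3. Mirg and Rian met in 11 cells, each of them with Meg3 too, which is 22.0% of Mirg cells against 8.66% with Rian among cells without Mirg.

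Deeper cells detect every gene more often, and Rian cells were deeper, with a median of 2187 against 1814 UMIs. After thinning to 1000 UMIs, which left out 254 cells, Meg3 was found in 78 of 86 Rian cells (90.7%) and in 62.5% of cells without Rian, and in 16 of 16 Mirg cells. At 500 UMIs, chosen as an alternative, the shares were 69.0% of 42 Rian cells and 48.5% of the others. The order also held within 4 depth groups of equal size: in the shallowest 92.3% of Rian cells and 53.7% of the others had Meg3, and in the deepest 98.7% and 87.9%. Meg3 was at 3456 CPM in the summed Rian cells and 2025 CPM in the cells without it, and it was higher in the Rian cells of each of the 6 retinas. Snhg11, on another chromosome, was higher in Rian cells too, with 2399 against 1361 CPM, as were amacrine markers, with 0.376% against 0.273% of UMIs, so the higher Meg3 level was not particular to genes of the domain. By retina, both were higher in the Rian cells of all but WT 2. In photoreceptors, taken as background, 454 of 42359 cells had Meg3 and 19 had Rian, 6 of them with both. The closest pair by detection, Meg3 with Mirg, rests on few Mirg molecules, 1 to 21 UMIs per retina.

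Interneurons of the annotation include bipolar and amacrine cells, and the genes were not even across them. Cells were divided by whether they had more UMIs on the amacrine or on the bipolar marker list: 391 had more amacrine, 1651 more bipolar and 41 equal UMIs, with 58 and 96 of the divided cells within 2 UMIs of the divide. Snhg11 was at 3450 to 5783 CPM on the amacrine side and 339 to 490 CPM on the bipolar side of the 6 retinas. Meg3 was at 2878 to 4441 CPM against 1141 to 1667 CPM. The ranges were apart for both genes, and the pattern is a description, since the division came after earlier results. Thinned to 1000 UMIs, Snhg11 was found in 93.0% of 342 amacrine-side cells and 27.6% of 1465 bipolar-side cells, Meg3 in 94.7% and 57.8%, Rian in 8.77% and 4.23%, and Mirg in 2.34% and 1.02%. Neat1 did not follow, at 3.51% and 3.48%. Rian was higher on the amacrine side in 5 of 6 retinas, the exception being WT 2 with 19.97 against 47.7 CPM. The amacrine-side values of batch 2 rest on only 1 to 5 Rian UMIs per retina, 1 of them in WT 2, so their order is within counting error.

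**Figure D4:**
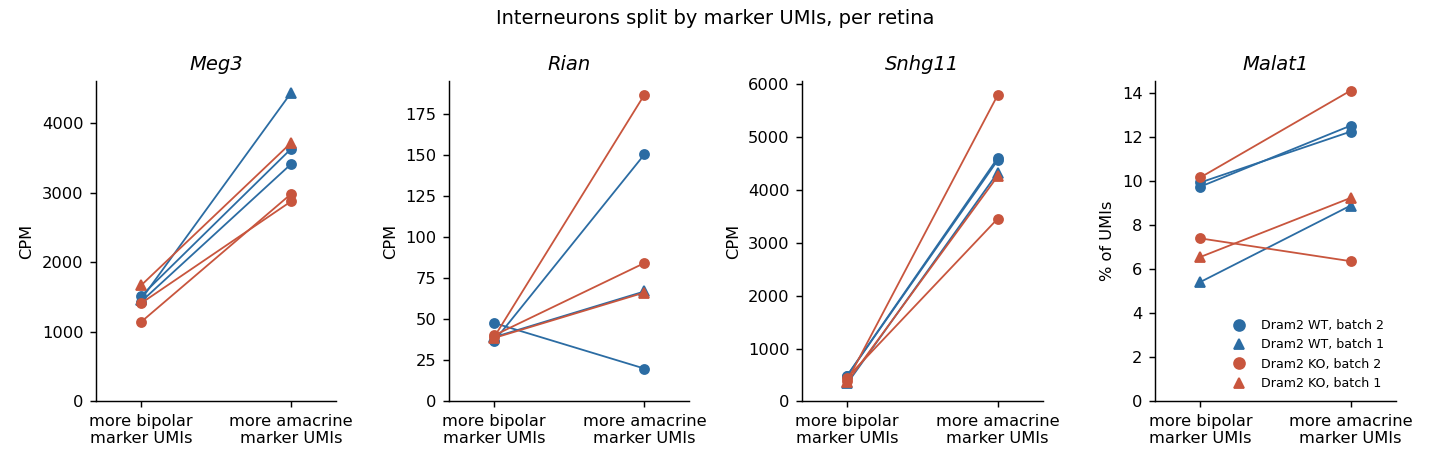
Meg3, Rian and Snhg11 (CPM) and Malat1 (percent of UMIs) in interneurons with more bipolar and with more amacrine marker UMIs, 1 line per retina. Snhg11 and Meg3 rise in all 6 retinas; the amacrine side of KO 1 is 4 cells.

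The genes most like each member over the 30 sums of retina and type, by Pearson's r of log2(CPM + 1) among 8214 genes with at least 20 CPM on average, were computed as a description. Nearest to Meg3 were Igsf9b (r = 0.948), Rnf208 (0.947) and Nrxn3 (0.928), a presynaptic adhesion gene. Snhg11 was followed by Scg2 (0.920), a granin of secretory vesicles, Podxl2 (0.909) and Nrxn3 (0.897). Rian was nearest to Slit2 (0.949), an axon guidance ligand, Vsx1 (0.947), a bipolar transcription factor, and Zfhx4 (0.929). For Mirg they were Dpp6 (0.924), the imprinted Nnat (0.855) and Gm42769 (0.854), and for Miat, from 16 UMIs, Calb2 (0.673), Cartpt (0.660) and Tfap2b (0.659). Neat1 was nearest to Cebpg (0.973), Faap20 (0.968) and Mtmr6 (0.962), and Malat1 to Clasp1 (0.928), Vps13a (0.924) and Igf2bp3 (0.921). The 30 sums share 6 libraries and 5 types, and low genes share the depth of the small RPE sums.

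The first tested question was whether loss of Dram2 altered these RNAs. No member passed edgeR's quasi-likelihood test with Benjamini-Hochberg adjustment (adjusted p under 0.05) in any type or over all cells. The background was the same: 0 of 13053 genes in photoreceptors (0%), 0 of 7698 in interneurons, 0 of 4130 in glia, 0 of 1717 in mesenchymal cells, 0 of 308 in RPE and 0 of 15330 over all cells. At an unadjusted p under 0.05, 109 genes were counted in photoreceptors, 86 in interneurons, 51 in glia, 150 in mesenchymal cells, 11 in RPE and 101 over all cells; 2 of these were members, Neat1 in mesenchymal cells and Malat1 in RPE. DESeq2 called 1 member, Malat1 in RPE, and limma-voom none. The paper, by limma-voom on cells summed per sample and type, reported significant genes in interneurons, mesenchymal cells and RPE, none of them a member. It reported none in photoreceptors. Here limma-voom called 0 genes in each of these types, and the reason for the difference was not tested. Low-count filtering left 4 members to test in photoreceptors, 5 in interneurons, 3 in glia, 2 in mesenchymal cells and 1 in RPE. Miat and Mirg passed it in no type, nor over all cells.

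In photoreceptors the log2 fold change of KO against WT was -0.18 ± 0.36 (SE) for Malat1, -0.12 ± 0.37 for Neat1, -0.55 ± 0.81 for Meg3 and -0.15 ± 0.40 for Snhg11. In interneurons it was -0.17 ± 0.28 for Meg3, 0.04 ± 0.25 for Rian and -0.10 ± 0.40 for Snhg11. Each change was smaller than its error in these fits, which leave out the batch. With the batch as covariate, Meg3 in photoreceptors was at -0.49 ± 0.24, larger than its error but not past the threshold (edgeR, adjusted p = 0.9101). Malat1, Neat1 and Snhg11 in photoreceptors stayed smaller than their errors. The median Malat1 share of a photoreceptor was 15.1% ± 2.17 in KO and 16.8% ± 4.86 in WT (SD, n = 3 each; exact two-sided permutation p = 0.8, the smallest possible being 0.1). Within batch 2 KO was lower by 4.03 percentage points and within batch 1 KO 3 was higher than WT 3 by 3.08, so the 2 batches pointed opposite ways.

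Over the 5 types, Neat1 in mesenchymal cells and Malat1 in RPE were the members whose genotypes did not overlap. For Neat1, the 3 WT retinas (281 CPM ± 25.8, SD) lay above the 3 KO retinas (182 CPM ± 19.9), from 13 to 28 UMIs each. Its log2 fold change was -0.66 ± 0.29 with an adjusted p of 0.5522 by edgeR (0.3499 to 0.9998 over the alternatives tried). Of 1717 genes tested there, 15.8% had groups that did not overlap, and the same background was 10.7% in RPE, 5.55% in photoreceptors, 6.21% in interneurons, 5.88% in glia and 5.28% over all cells. In cells with most UMIs on the endothelial list the WT values of 428, 316 and 329 CPM lay above the KO values of 194, 216 and 190 CPM. Neither microglial nor pericyte list cells kept this order: microglial list cells of KO 1 had 257 CPM, above WT 1 and WT 2 with 198 and 194 CPM, and pericyte list cells had 191, 774 and 187 CPM in WT and 222, 156 and 91.2 CPM in KO.

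Malat1 in RPE gave the widest difference, a log2 fold change of -2.002 ± 0.48 (edgeR, adjusted p = 0.6258, with 1.119e-32 to 0.9029 over the alternatives tried, among which DESeq2 gave 0.02417), and 1 cell moved its size. That cell, of WT 3, had 1665 of the 1872 Malat1 UMIs in the RPE of its retina and 24.8% of its 6713 UMIs on Malat1, with 497 UMIs on RPE markers. Without it WT 3 fell from 5.20% to 0.708% Malat1, inside the KO range of 0.577% to 0.962%, and the log2 fold change became -0.84 ± 0.31 (adjusted p = 0.9029). With the cell of most Malat1 UMIs taken out of every retina alike, the WT values of 1.49%, 1.096% and 0.708% lay above the KO values of 0.645%, 0.549% and 0.611%. Cells with a Malat1 share of 8% or more numbered 2, 4 and 2 in WT and 0 in each KO retina. RPE cells numbered 25, 25 and 23 in WT and 17, 16 and 10 in KO, and the paper calls them an artifact of isolating the retina. Those from 8% to under 10% and from 10% to under 15% had medians of 517 and 429 UMIs, against 1098 under 2%. Their rod markers were 3.66% and 4.01% of UMIs other than Malat1, against 0.811% under 2%. WT 1 and WT 2, with 1.90% and 1.28%, lay above the KO range, and without WT 3 altogether the log2 fold change was -1.13 and passed (edgeR, adjusted p = 0.0009165). The median RPE cell had 0.821%, 0.604% and 0.560% Malat1 in WT and 0.424%, 0.607% and 0.405% in KO, which overlap. With the batch as a covariate the difference that includes this cell passed (log2 fold change -1.72, adjusted p = 2.469e-06).

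**Figure D5:**
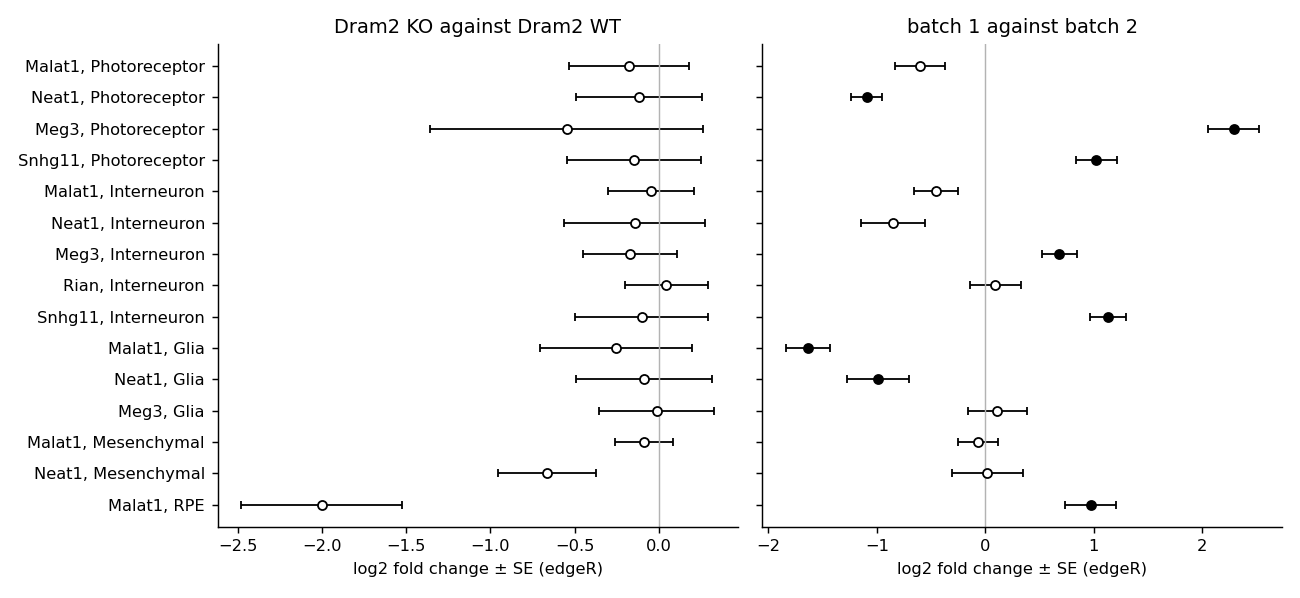
Log2 fold changes with SE from edgeR for each member tested, between genotypes (left) and between batches (right); filled points have an adjusted p under 0.05. No genotype point is filled, while Meg3, Snhg11, Neat1 and Malat1 have filled batch points in 1 or more types.

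The second question was whether the members differed between the batches, with genotype as a covariate. In photoreceptors, where 5.39% of 13053 genes passed between the batches, 3 of 4 members tested did. Meg3 was higher in batch 1, with 66.5 and 41.1 CPM in WT 3 and KO 3 against 6.57 to 13.6 CPM in batch 2 (log2 fold change 2.29 ± 0.23, adjusted p = 0.005253). Snhg11 was also higher, with 49.2 and 37.2 CPM against 18.4 to 25.2 CPM (1.03 ± 0.19, adjusted p = 0.0288). Of the markers of interneurons, the cells richest in both RNAs, amacrine ones moved the same way in these photoreceptor sums and bipolar ones did not. Amacrine markers were at 811 and 761 CPM in WT 3 and KO 3 against 484 to 582 CPM in batch 2. Bipolar markers lay between 738 and 831 CPM over all retinas, with the highest value in WT 1, of batch 2. Bipolar and amacrine markers together were at 1603 and 1528 CPM in WT 3 and KO 3 against 1223 to 1397 CPM in batch 2. Batch 1 also held more interneurons, 610 and 536 against 160 to 276 per retina, and the part of their RNA in the Meg3 and Snhg11 differences was not tested. Neat1 was lower, with 41.4 and 37.0 CPM against 80.5 to 89.4 CPM (-1.10 ± 0.14, adjusted p = 0.01047). Malat1 missed the threshold (-0.60 ± 0.23, adjusted p = 0.1512), although both batch 1 values lay under the other 4. Without a filter it passed (edgeR, adjusted p = 3.231e-08). Without WT 3 or KO 3, which leaves 1 retina in batch 1, 0 and 1 of the 4 members passed, and without KO 1 all 4 did; without WT 1, WT 2 or KO 2, 1, 1 and 2 did. Meg3 lost its call only without WT 3 (adjusted p = 0.1063), Neat1 without WT 1, WT 2, WT 3 or KO 3 (0.08174 to 0.1376), and Snhg11 without each retina but KO 1 (0.07431 to 0.2931) and in the stricter set of cells (0.06654), all by edgeR.

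In interneurons 11.2% of genes passed, and 2 of 5 members. Meg3 and Snhg11 were higher in batch 1 by 0.68 ± 0.16 (adjusted p = 0.01097) and 1.14 ± 0.17 (adjusted p = 0.0003008) on the log2 scale. Snhg11 stayed past the threshold without any 1 retina, while Meg3 was not past it without WT 1, WT 2, WT 3 or KO 3 (edgeR, adjusted p = 0.07195, 0.06057, 0.1367 and 0.2255). Rian differed by 0.09 ± 0.24 (adjusted p = 0.8428). Amacrine-side cells were 29.0% and 27.4% of interneurons in WT 3 and KO 3 and 2.5% to 9.06% in batch 2. The part of this mix of cells in the Meg3 and Snhg11 differences was not tested. Among bipolar-side interneurons alone, a set chosen after seeing the data, Meg3 differed by 0.15 ± 0.16 (adjusted p = 0.6589) and Snhg11 by -0.41 ± 0.17 (adjusted p = 0.1751), and neither passed. There Malat1 was lower in batch 1 (-0.68 ± 0.18, adjusted p = 0.03944), 1 of 5 members called beside 5.29% of 7094 genes.

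Glia had 6.92% of genes called, and 2 of 3 members. Malat1 was lower in batch 1, by 1.64 ± 0.20 on the log2 scale (adjusted p = 2.22e-05), and so was Neat1, with 81.6 and 55.8 CPM against 103 to 154 CPM (-0.99 ± 0.29, adjusted p = 0.03957). The Neat1 call was lost with DESeq2 (adjusted p = 0.288), without a filter (0.2642) and, by edgeR, without each retina but KO 1 (0.09679 to 0.3939), and Malat1 stayed past the threshold in all of these fits. Meg3 did not differ beyond its error (0.11 ± 0.27). In mesenchymal cells, with 3.26% of genes called, neither Malat1 nor Neat1 passed. In RPE, with 7.79% called, Malat1 was called higher in batch 1 (0.97 ± 0.23, adjusted p = 0.007123) with the WT 3 cell and lower without it (-0.66 ± 0.18, adjusted p = 0.009967). Over all cells, with 14.1% called, Meg3, Snhg11 and Rian were higher and Neat1 lower in batch 1. Interneurons gave 24.9% and 19.99% of all UMIs in WT 3 and KO 3 against 7.10% to 10.8% in batch 2. The part of this share in the differences over all cells was not tested. Rian within interneurons stood at 43.3 to 49.8 CPM in all 6 retinas, from only 11 to 70 UMIs each. Batches did not overlap for 35.3% of all tested genes in photoreceptors, 31.2% in interneurons, 30.9% in glia, 23.6% in mesenchymal cells, 19.2% in RPE and 40.8% over all cells. The mitochondrial share was also higher in batch 1; its part in these differences was not tested. A genotype by batch interaction was also fitted, but batch 1 has 1 retina of each genotype, assumed to vary like those of batch 2, so its p-values do not show whether a genotype difference depends on the batch. Only Malat1 in RPE was past the threshold (-2.01 ± 0.23, adjusted p = 1.573e-15), from 23 and 10 RPE cells in WT 3 and KO 3, and it was not without the WT 3 cell (adjusted p = 0.348). The share past it was 0.325% of genes in RPE, 0.116% in mesenchymal cells and 0% elsewhere.

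The other genes of these pathways were counted in lists. None of 13 paraspeckle protein genes, 16 nuclear speckle protein genes, 28 other imprinted genes, 15 matched snoRNA host genes, 14 matched long noncoding RNAs or the 8 genes of the Dlk1-Dio3 domain passed between genotypes in any type. The smallest p in photoreceptors belonged to Rbm14 (log2 fold change 0.21 ± 0.23) and Cpsf7 (-0.15 ± 0.20) for paraspeckles, Srsf7 (0.22 ± 0.18) and Srsf11 (0.18 ± 0.18) for speckles, Usp29 (-0.62 ± 0.38) and Snhg14 (-0.35 ± 0.23) for imprinted genes, Snhg6 (0.32 ± 0.18) and Gas5 (0.30 ± 0.18) for snoRNA hosts, and Firre (-0.28 ± 0.29) and Kcnq1ot1 (-0.29 ± 0.37) for other long noncoding RNAs. The medians of these 5 lists in photoreceptors ranged from -0.13 to 0.07, beside -0.01 over all genes tested. Of the Dlk1-Dio3 domain only Meg3 was tested there.

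Between batches, 5 of 16 nuclear speckle genes passed in interneurons (4 lower and 1 higher in batch 1), beside 11.2% of all genes tested there. In photoreceptors 3 of 16 passed (2 lower, 1 higher), beside 5.39%, and in glia 4 of 16 (3 lower, 1 higher), beside 6.92%. Son, a speckle core protein, was lower in photoreceptors (-0.75 ± 0.17, adjusted p = 0.04713) and interneurons (-0.79 ± 0.18, adjusted p = 0.007112), as was Pnn, and Srsf3, a splicing factor, was higher in all 3 types. The list median was -0.28 in photoreceptors, -0.27 in interneurons and -0.46 in glia, beside -0.06, -0.04 and -0.03 over all genes tested. Of 13 paraspeckle genes, 2 passed in interneurons, Nono and Hnrnpm (-0.87 ± 0.23 and -0.93 ± 0.21), a count near the background of 11.2%, and none in another type. Of the other imprinted genes, 2 of 22 tested passed in photoreceptors, with Ndn higher and Zrsr1 lower, and 3 of 17 in interneurons, with Nap1l5 and Snrpn higher and Usp29 lower. The backgrounds there were 5.39% and 11.2%, so neither count is read as a result about the list. Of other long noncoding RNAs, 3 of 8 tested passed in photoreceptors and 2 of 8 in interneurons, each lower in batch 1. They were Tug1, a nuclear RNA, in both types (-1.03 ± 0.19 and -1.21 ± 0.27), Vax2os (-0.73 ± 0.16) and Mir124a-1hg (-0.62 ± 0.13) in photoreceptors, and Dleu2 (-1.005 ± 0.28) in interneurons. Of snoRNA hosts, 2 of 14 passed in photoreceptors, 2 of 12 in interneurons and 1 of 6 in glia. Apart from Snhg11 these were all Snhg9, lower in the 3 types with log2 fold changes of -0.92, -1.297 and -1.035, opposite to Snhg11.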

How the data were processed

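The deposited table holds UMI counts, which per the labels and the study's methods the authors made with Cell Ranger 3.1.0 on GRCm38 from exonic reads; the authors clustered cells after integration by batch and deposited the cell types used here. No sample column of the deposited table was set aside (0 unused), and 52489 of 52636 identifiers matched a symbol in GENCODE M21. Members and lists were chosen with earlier results of these data known.

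UMIs were summed per retina and type, and CPM computed from the sums. edgeR 4.0.16 (TMM, filterByExpr, quasi-likelihood F-test, Benjamini-Hochberg over all genes tested, threshold 0.05) compared genotypes without covariate, batches with genotype as covariate, and their interaction; SE is |log2 fold change|/√F. The study used limma-voom, here an alternative (limma 3.58.1), beside DESeq2 1.42.0, RLE factors, no filter, totals without Malat1 and mitochondrial genes, a stricter set of 20049 cells (500 or more UMIs, mitochondrial share up to 10%), each retina left out, and batch or replicate number as covariate. Fits were tested on simulated data. Cells were thinned by drawing UMIs without replacement. Named genes were the 7 members, called genes of the lists or else the 2 with the smallest p in the type with most genes tested, and the 3 most correlated genes. Depth, 3463728 to 6563762 UMIs per retina, limits precision in RPE (17073 to 35968 UMIs) and for Miat; intervals cover counting error only. Python 3.11.15 and R 4.3.3 were used.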

Additional observations from a re-analysis of the deposited data

Results flagged for a closer look

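Meg3 in interneurons was lowest in KO 1 among the 4 retinas of batch 2, at 1204 CPM, far from the other 3 values of 1599, 1669 and 1675 CPM. Snhg11 in RPE had 37.6 CPM in WT 2 and 0 in the 3 other batch 2 retinas, and that value is 1 UMI. Chance flags about 1 in 20 such groups where the values are normally distributed. A single UMI among 4 retinas is always flagged, so the flag says nothing about Snhg11.

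Malat1 in RPE was past the threshold of an edgeR genotype by batch interaction (log2 difference -2.01, adjusted p = 1.573e-15). Batch 1 has a single retina of each genotype, so this p-value does not show that the genotype difference depends on the batch. WT 3 had 5.20% and KO 3 0.720% Malat1 in batch 1, and the 1 cell of WT 3 described above carries 1665 of the Malat1 UMIs. limma-voom also called it, DESeq2 did not, and without that cell the edgeR adjusted p was 0.348.

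The 629 cells without a deposited type, which entered the sums over all cells but no comparison within a type, had 102400 CPM of Malat1 (38824 UMIs), 58.0 CPM of Neat1 (22 UMIs), 44.8 CPM of Meg3 (17 UMIs) and 44.8 CPM of Snhg11 (17 UMIs).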

How the results depend on the processing

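Alternatives on the bipolar side and without the 1 RPE cell were chosen after seeing the data. Members called between genotypes numbered 0 in each type and over all cells, except in RPE, where 1 (Malat1) was called by DESeq2, without a filter, with the batch as covariate, with the replicate block, and in the fit without WT 3 (range 0 to 1 leaving out each retina). Replicate numbers were not taken as pairing the samples, since replicate 1 correlated across genotypes at only 0.07 over all cells (replicates 2 and 3 at 0.54 and 0.65). Under the replicate block Malat1 in RPE was at -1.74, no other member was called, and 26 genes were called in mesenchymal cells and 4 in RPE (21 and 3 with the batch as covariate; 28 and 3 without a filter).

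Members called between batches ranged, leaving out each retina, over 0 to 4 (photoreceptors), 1 to 4 (interneurons), 1 to 3 (glia), 0 (mesenchymal), 0 to 1 (RPE) and 1 to 6 (all cells). The photoreceptor count of 703 genes became 8 without WT 3, 58 without KO 3, 42 without WT 1, 53 without WT 2, 213 without KO 2 and 4437 without KO 1, and 2295 without a filter; that of 866 in interneurons became 373 with DESeq2 and 1463 without a filter, 286 in glia 52 with DESeq2, 56 in mesenchymal cells 22 with DESeq2, 24 in RPE 7 with DESeq2, and 2158 over all cells 1301 with stricter cells. Leaving out each retina these counts ranged from 223 (without KO 3) to 2359 (without KO 1) in interneurons, 23 (WT 3) to 1068 (KO 1) in glia, 24 to 76 in mesenchymal cells, 8 to 30 in RPE and 90 (WT 3) to 6341 (KO 1) over all cells, so the shares of genes called move with them. limma-voom called 4 members in interneurons, and DESeq2 1 in glia and 0 in RPE. Without a filter 4 were called in photoreceptors (Malat1 gained), 3 in interneurons, 0 in RPE and 7 over all cells. Stricter cells gave 2 in photoreceptors (Snhg11 lost), 0 in RPE and 3 over all cells, and bipolar-side interneurons 1. The interaction in RPE gave 0 with DESeq2 or without the 1 cell.

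Signs turned between genotypes for Rian in interneurons (-0.017 with stricter cells, -0.056 on the bipolar side) and Meg3 in glia (0.0009951 with DESeq2), and between batches for Snhg11 (-0.41) and Rian (-0.11) on the bipolar side, Neat1 in mesenchymal cells (-0.016 with DESeq2, -0.0038 with RLE factors) and Malat1 in RPE without the 1 cell (-0.66). Leaving out each retina, the log2 fold change between genotypes ranged in photoreceptors from -1.67 to 0.78 (Meg3), -0.48 to 0.40 (Snhg11) and -0.40 to 0.17 (Neat1), in interneurons from -0.47 to 0.076 (Meg3), -0.66 to 0.34 (Snhg11), -0.54 to 0.24 (Neat1) and -0.25 to 0.067 (Malat1), in glia from -0.20 to 0.32 (Meg3), -0.45 to 0.35 (Neat1) and -0.78 to 0.12 (Malat1), and over all cells from -1.31 to 0.50 (Meg3), -1.41 to 0.82 (Snhg11), -0.40 to 0.16 (Neat1), -0.43 to 0.017 (Malat1) and -0.90 to 0.21 (Rian). Between batches it ranged from -0.10 to 0.41 (Meg3, glia), -0.19 to 0.21 (Neat1, mesenchymal), -0.27 to 0.16 (Malat1, mesenchymal) and -0.14 to 1.79 (Malat1, RPE). The cause was not tested.

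Depth without Malat1 moved the median rho to -0.46 in photoreceptors and 0.21 in glia, and thinned to 500 UMIs 69.0% of 42 Rian cells and 48.5% of the others had Meg3. The median Malat1 share of photoreceptors differed by -4.46 to -0.134 points between genotypes and -6.39 to -3.31 between batches, leaving out each retina.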
